A study of Mus musculus with 8 samples.

Results

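The genes described are the nuclear-encoded subunits of the mitochondrial respiratory chain and ATP synthase in mouse lung epithelium. They were taken from the count table by the start of their symbols (Nduf, Sdha to Sdhd, Uqcr, Cox4i, Cox5, Cox6, Cox7, Cox8 and Atp5). Of 86 rows that matched, 1 pseudogene was left out, and all 85 remaining genes had at least 30 counts over the 8 libraries. The table holds 13265 genes, of which 12661 reached that minimum and were tested. By their known place, 34 members are subunits of complex I, 4 of complex II, 7 of complex III, 17 of complex IV and 17 of ATP synthase, and 6 are complex I assembly factors that share the Nduf prefix. Epithelial cells (EpCam+ CD31- CD45-) were sorted from the lungs of female C57BL6 mice, marked wt (wild type) in the names of the count columns. All of the mice breathed an aerosol for 30 min, 3 times a week, over 10 weeks. The aerosol was PBS alone in 5 mice, the controls, and PBS with Escherichia coli LPS at 0.5 mg/ml in 3 mice, which the study uses as a model of chronic obstructive pulmonary disease. The labels give no age for these mice. From each mouse 10000 cells gave RNA for bulk MARS-seq, a method that sequences 3′ ends of polyadenylated transcripts and counts each molecule through a unique molecular identifier (UMI). The sort pools every epithelial type of the lung.

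The respiratory chain passes electrons from NADH and succinate to oxygen and pumps protons across the inner mitochondrial membrane, and ATP synthase uses the proton gradient to make ATP. Complex I oxidizes NADH, complex II oxidizes succinate, complex III passes electrons from quinol to cytochrome c, and complex IV, cytochrome c oxidase, reduces oxygen. Catalytic centres sit in a few core subunits, some of them encoded by mitochondrial DNA, and the many small accessory subunits stabilize or tune the complexes. In the alveolus, type II cells make surfactant and are rich in mitochondria. The question the comparison answers is whether transcripts of these subunits differ in lung epithelium after repeated LPS. The mitochondrially encoded subunits were not analysed here.

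Promoters of many such genes hold sites of the factors NRF1, GABP and YY1, known regulators of genes for mitochondrial proteins. Promoter sequences from RefSeq (GRCm38.p6, 250 bases before to 50 after the gene start) matched 70 of the 85 members. The letters GCATGCGC (NRF1) were found on either strand in 9 of these 70 (12.9%) against 5.57% of 10081 tested genes with a promoter. AGATGGCGG (YY1) was found in 6 members (8.57%) against 2.61%, and CCGGAAG (the GABPA subunit of GABP) in 19 members (27.1%) against 19.3%. Letters of NRF1 and GABPA stood together in 5 members (Atp5k, Atp5l, Cox6a1, Sdhb and Uqcr11) and those of YY1 and GABPA in 2 (Atp5j and Ndufaf8), and no matches of different factors shared a base. A match of letters is a description and does not show that a factor binds. The windows shown carry the matched letters in capitals in 4 members of 4 different complexes, which are taken up with their counts.
Sdhb, NRF1, chr4:140961206-140961235, plus strand: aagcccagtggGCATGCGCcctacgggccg
Sdhb, GABPA, chr4:140961266-140961295, plus strand: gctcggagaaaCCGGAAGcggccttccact
Uqcr11, NRF1, chr10:80406807-80406836, minus strand: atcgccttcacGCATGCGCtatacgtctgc
Uqcr11, GABPA, chr10:80406869-80406898, minus strand: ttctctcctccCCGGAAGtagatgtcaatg
Atp5k, NRF1, chr5:108434429-108434458, minus strand: ttcactgcggcGCATGCGCctttctggctt
Ndufs6, YY1, chr13:73328433-73328462, minus strand: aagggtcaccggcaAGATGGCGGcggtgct
The Sdhb windows lie on both sides of its start, with the NRF1 letters beginning at position -54 and the GABPA letters at position 6, where 0 is the first base after the 250 that precede the gene start. In Uqcr11 the NRF1 letters begin at position -4 and the GABPA letters at position -66. The NRF1 letters of Atp5k begin at -48 and the YY1 letters of Ndufs6 at 34, in the transcribed part. The median log2 fold change (LPS minus PBS) was -0.18 in the 9 members with NRF1 letters and -0.24 in the 61 matched members without, -0.14 in 6 and -0.24 in 64 for YY1, and -0.21 in 19 and -0.26 in 51 for GABPA. All 6 medians were below 0.

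Library totals ran from 2232727 to 2890560 counts in PBS mice and from 2739340 to 4445431 in LPS mice (two-sided exact permutation test, p = 0.054), and 3 counts stood for 0.675 to 1.34 counts per 1000000 counts (CPM). The columns of the table carry library numbers that no sample label gives, which serve here as names. Values are given throughout in the order s1, s2, s6, s11 and s16 for PBS and s4, s14 and s18 for LPS. The PBS libraries were not alike. The 100 most abundant genes took 33.6, 33.9, 40.3, 39.6 and 42.0% of the counts in PBS libraries and 32.9, 33.7 and 35.1% in LPS libraries, so that s1 and s2 resembled the LPS libraries in this respect and s6, s11 and s16 did not. Epithelial labels were borne out by Epcam at 107 to 148 CPM in PBS and 107 to 137 CPM in LPS libraries. The 7 alveolar type II markers together took 11.9, 12.2, 14.4, 15.1 and 14.4% of the counts in PBS and 10.0, 10.2 and 9.80% in LPS libraries. None of the 7 was called changed, and their median log2 fold change was -0.34. Of 8 markers of ciliated cells none was called, with 7 higher at an unadjusted p under 0.05 and a median log2 fold change of 0.87. Of 20 macrophage markers 12 were called higher, none was at 0 in any library, and their median log2 fold change was 1.65. Their summed share was 2.63 to 3.90% in PBS and 2.16 to 2.86% in LPS libraries (two-sided exact permutation test, p = 0.16). Lyz2, which alveolar type II cells also express, made up most of that sum. Of the 20 markers, 18 had a log2 fold change above 0 and 2, Lyz2 and Apoe, below 0. Without these 2, the other 18 took 0.0349 to 0.0730% in PBS and 0.127 to 0.277% in LPS libraries. This choice was made after seeing the data and left only markers above 0, so that no test is given for the sum. The part of macrophages or of the mix of epithelial types in the values of the respiratory chain was not tested, and fewer cells of a type and less RNA per cell cannot be told apart in bulk counts.

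By edgeR, the main test here, no respiratory chain member was called changed, and by DESeq2, the method of the study, 1 was. Point estimates lay mostly below 0, lower in LPS mice, a balance that turned to the other side without PBS libraries s6, s11 and s16. In edgeR's quasi-likelihood test over all 12661 genes, a call needed a Benjamini-Hochberg adjusted p below 0.05 and a log2 difference of more than 0.32 in size. Of 85 members 0 were called lower, beside a background of 72 genes (0.569%), and 0 were called higher, beside 185 genes (1.46%). At an unadjusted p under 0.05, 14 members (16.5%) were lower, against 7.64% of all genes tested, and 0 were higher, against 10.4%. The 14 were Ndufa1, Ndufa5, Ndufa12, Ndufb2, Ndufc1 and Ndufc2 of complex I, Sdhc of complex II, Cox5b, Cox6a2 and Cox7a2 of complex IV, and Atp5e, Atp5g1, Atp5k and Atp5md of ATP synthase. This count moved with single libraries. Without s1 it was 25 (29.4%, against 8.74% of all genes) and without s2 it was 26 (30.6%, against 8.21%). Without s6 it was 10 (11.8%, against 7.57%). It was 6 (7.06%) without s11 or without s16, against 6.14% and 7.01% of all genes, and 5 (5.88%) without s4 or without s14, against 6.24% and 5.25%. With any of these last 4 libraries left out, the share of members was near that of all genes. By limma-voom 0 members were called, against 0.521% of all genes called lower, and 11 (12.9%) were lower at an unadjusted p under 0.05, against 7.53%. By DESeq2, with the same thresholds, which are also those of the study, 1 member was called lower, Cox6a2, against 1.51% of all genes. The log2 fold change was below 0 in 75 members (88.2%) and in 52.7% of all genes tested, and its median was -0.22 in the members and -0.02 in all genes. Every LPS library lay below every PBS library in 5 members (5.88%), a share like the 5.86% of all genes tested, and no member had every LPS library above. Together the members took 1.89, 1.91, 2.17, 2.34 and 2.29% of the counts in PBS libraries and 1.88, 1.99 and 1.98% in LPS libraries. LPS libraries s14 and s18 lay inside the range of the PBS libraries and s4 just under it, all of them nearer to s1 and s2 than to s6, s11 and s16.

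**Figure D1:**
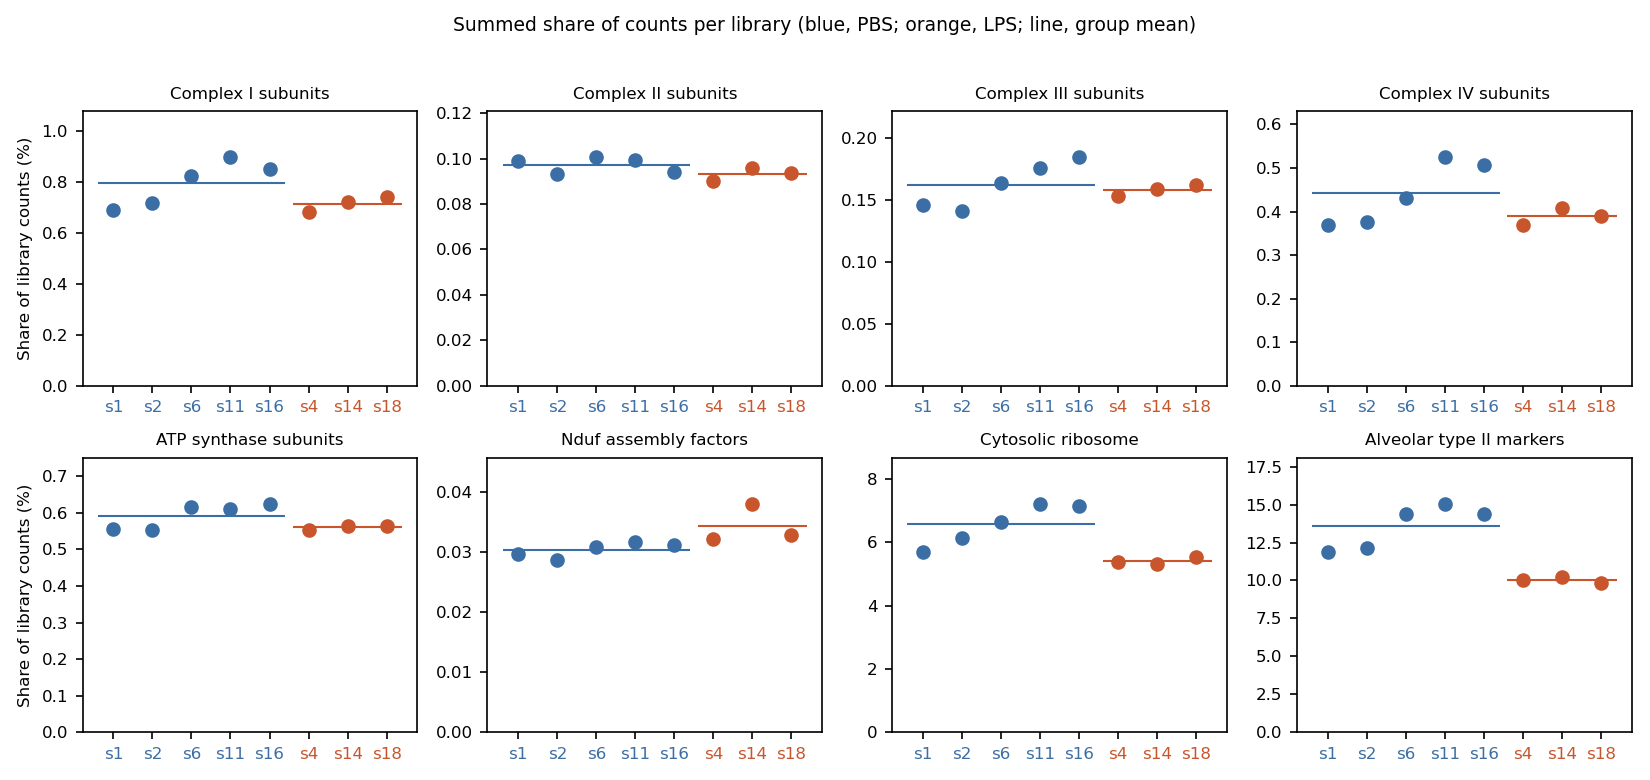
Summed share of library counts (%, y axis from 0) in each of 5 PBS (blue) and 3 LPS (orange) libraries for the 5 complexes, the Nduf assembly factors, the cytosolic ribosomal protein genes and the alveolar type II markers, with lines at the group means. For complex I the LPS libraries sit close to PBS libraries s1 and s2. For complex IV s4 and s18 do so, and s14, at 0.409%, lies between s2 and s6. In both, s11 and s16 are the highest, at 0.899% and 0.852% for complex I and 0.525% and 0.507% for complex IV.

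Complex I held the most members, and 33 of its 34 subunits (97.1%, against 52.7% of all genes) had a log2 fold change below 0, with a median of -0.25. At an unadjusted p under 0.05, 6 (17.6%, against 7.64% of all genes) were lower. That count was 12 (35.3%) without s1 or without s2, 3 (8.82%) without s11 or without s16, and 1 (2.94%) without s4. As a sum they took 0.690, 0.719, 0.826, 0.899 and 0.852% of the counts in PBS and 0.685, 0.722 and 0.741% in LPS libraries. Ndufa5 (chr6:24518662-24527690, GRCm38), an accessory subunit, had the smallest p of this complex. Its level was 49.0, 51.0, 65.4, 86.3 and 106 CPM (scaled by TMM factors, which correct for composition) in the PBS libraries and 41.3, 44.8 and 44.5 CPM in the LPS libraries. All 3 LPS libraries were below the PBS libraries, of which s1 and s2 came close, and the log2 fold change was -0.71 ± 0.24 (SE, adjusted p = 0.15). Ndufc2, a membrane-arm accessory subunit and a more abundant transcript, was at 330, 436, 453, 591 and 520 CPM in PBS and 296, 326 and 349 CPM in LPS libraries. Only PBS library s1 fell among the LPS libraries, and the log2 fold change was -0.53 ± 0.18 (SE, adjusted p = 0.15). Ndufc1, its neighbour in the membrane arm, was at 70.3, 59.4, 90.5, 106 and 109 CPM in PBS and 45.9, 51.4 and 72.3 CPM in LPS libraries, where LPS library s18 overlapped PBS libraries s1 and s2, with a log2 fold change of -0.61 ± 0.23 (SE, adjusted p = 0.18). The most abundant complex I member over the 8 libraries was Ndufa13, also known as GRIM-19, an accessory subunit of the membrane arm. It was at 566 ± 100 CPM (SD, n = 5) in PBS and 511 ± 69.5 CPM (SD, n = 3) in LPS mice, with a log2 difference of -0.15 ± 0.17 (SE, adjusted p = 0.71).

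The 7 core subunits of complex I, which carry the flavin and the iron-sulfur clusters or line the quinone site, are set beside its 27 accessory subunits. The median log2 fold change of the core subunits was -0.20, with 0 of 7 at an unadjusted p under 0.05. That of the accessory subunits was -0.26, with 27 of 27 below 0 and 6 (22.2%, against 7.64% of all genes) at that p. The difference between core and accessory subunits was not tested. Ndufs1, an iron-sulfur subunit of the electron input arm, Ndufs8, Ndufs6 and Ndufb4 were chosen after their values were seen. Ndufs1 was at 53.9, 66.4, 51.0, 55.5 and 59.0 CPM in PBS and 48.8, 50.0 and 45.4 CPM in LPS libraries, with every LPS library below every PBS library and s2 the highest of the 8 (log2 fold change -0.25 ± 0.13 (SE), adjusted p = 0.34). Ndufs8, another iron-sulfur subunit, had a gap between s1 and s2 and the other PBS libraries, at 133, 134, 229, 230 and 232 CPM in PBS and 125, 146 and 148 CPM in LPS libraries. Ndufs6, whose promoter window with YY1 letters is shown, was at 230, 232, 285, 363 and 352 CPM in PBS and 210, 232 and 245 CPM in LPS libraries and repeated the order of Ndufs8, with s1 and s2 in the range of the LPS libraries. Among the complex I subunits Ndufb4 spread the most within PBS mice, from 45.2 to 133 CPM, and its log2 fold change of -0.60 had a standard error of 0.33.

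Complex II, which is also an enzyme of the citric acid cycle and is encoded wholly in the nucleus, was nearly level in sum, at 0.0988, 0.0934, 0.101, 0.0992 and 0.0940% of the counts in PBS and 0.0900, 0.0959 and 0.0936% in LPS libraries. Sdhc, a membrane anchor, was at 351, 325, 465, 471 and 442 CPM in PBS and 294, 338 and 330 CPM in LPS libraries. PBS library s2 lay among the LPS values, s1 just above them and s6, s11 and s16 well above, with a log2 fold change of -0.36 ± 0.16 (SE, adjusted p = 0.26). The other membrane anchor, Sdhd, was at 141, 130, 144, 153 and 165 CPM in PBS and 155, 158 and 166 CPM in LPS libraries, with a log2 fold change of 0.12 ± 0.12 (SE, adjusted p = 0.65), so that the point estimates of the anchors had opposite signs. Sdhb, the iron-sulfur subunit whose promoter windows are shown, was at 255, 231, 254, 304 and 341 CPM in PBS and 245, 268 and 265 CPM in LPS libraries, with the LPS libraries inside the PBS range and a log2 fold change of -0.10 ± 0.15 (SE, adjusted p = 0.79). Sdha, the flavoprotein that oxidizes succinate, ran the other way within PBS mice, at 177, 184, 188, 140 and 128 CPM, with s11 and s16 the lowest, and was at 155, 155 and 164 CPM in LPS mice (log2 fold change -0.05 ± 0.15 (SE), adjusted p = 0.90).

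Complex III members gave no value at an unadjusted p under 0.05, and 5 of 7 were below 0, with a median log2 fold change of -0.15. Their summed share was 0.146, 0.141, 0.164, 0.176 and 0.185% in PBS and 0.153, 0.159 and 0.162% in LPS libraries. Uqcrh, the hinge protein between cytochrome c1 and cytochrome c and the most abundant member, was at 422, 404, 440, 534 and 773 CPM in PBS and 436, 380 and 509 CPM in LPS libraries, where s16 alone stood high (log2 fold change -0.22 ± 0.22 (SE), adjusted p = 0.64). Uqcrc2, named core protein 2, lies on the matrix side, and it and Uqcrc1 are counted here among the accessory subunits. Uqcrc2 was at 130, 124, 169, 172 and 174 CPM in PBS and 146, 97.3 and 141 CPM in LPS libraries, with s14 the lowest of the 8 and a log2 fold change of -0.26 ± 0.18 (SE, adjusted p = 0.48). Uqcr11, a small subunit with NRF1 and GABPA letters in its promoter, was at 284, 270, 380, 475 and 421 CPM in PBS and 285, 340 and 362 CPM in LPS libraries and did not separate the groups. Uqcrb, the subunit with the highest log2 fold change of all members, was at 12.9, 9.03, 34.3, 27.5 and 6.87 CPM in PBS and 24.8, 58.4 and 10.4 CPM in LPS libraries. The LPS libraries spanned nearly the whole PBS range and s14 alone exceeded it, and the log2 fold change of 0.78 ± 0.56 (SE, adjusted p = 0.50) became -0.03 without s14. Uqcrc1, the partner of Uqcrc2, varied least within this complex, at 111, 110, 130, 115 and 110 CPM in PBS and 109, 112 and 112 CPM in LPS libraries, and the Rieske iron-sulfur protein Uqcrfs1 had a log2 fold change of 0.02 ± 0.14 (SE, adjusted p = 0.97).

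Complex IV had the lowest median of the complexes, -0.34, with 16 of its 17 nuclear members (94.1%, against 52.7% of all genes) below 0. At an unadjusted p under 0.05, 3 of its members (17.6%, against 7.64% of all genes) were lower. All 17 are accessory here, since the catalytic subunits of complex IV are encoded by mitochondrial DNA. Together they took 0.369, 0.377, 0.430, 0.525 and 0.507% of the counts in PBS and 0.369, 0.409 and 0.389% in LPS libraries. Cox6a2 (chr7:128205435-128206366, GRCm38), the isoform of subunit VIa known from heart and skeletal muscle, had the smallest p of all members. It was at 226, 205, 328, 448 and 317 CPM in PBS and 168, 140 and 185 CPM in LPS libraries, and every LPS library was below every PBS library. The log2 fold change was -0.89 (standard error 0.24, 95% interval -1.41 to -0.37), with an adjusted p of 0.086 by edgeR and 0.018 by DESeq2. By edgeR it was called without PBS library s2 (adjusted p = 0.048), and over all alternatives its adjusted p ran from 0.0098 to 0.32. The last 500 bases of Cox6a2 overlap the annotated gene Itgad, and the sources used here do not say whether counting used strand. Other members have such an overlap too, among them Ndufb2 with Braf, Ndufa13 with Yjefn3, Atp5o with Donson and Uqcrc2 with Pdzd9. Cox5b, a subunit of the matrix side, was at 214, 216, 293, 294 and 334 CPM in PBS and 191, 210 and 210 CPM in LPS libraries, with every LPS library below every PBS library, though s14 and s18 came close to s1 and s2 (log2 fold change -0.41 ± 0.17 (SE), adjusted p = 0.23). Cox7a2, the common form of subunit VIIa, was at 163, 149, 185, 284 and 358 CPM in PBS and 141, 129 and 173 CPM in LPS libraries, where s11 and s16 stood apart from the other 6 libraries (log2 fold change -0.62 ± 0.27 (SE), adjusted p = 0.26, and -0.40 without s16).

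Complex IV is the complex with tissue isoforms, and their levels are given by pair. Cox6a1, the isoform of most tissues and the most abundant of all members, was at 812, 804, 1013, 1106 and 1025 CPM in PBS and 740, 822 and 905 CPM in LPS libraries, with a log2 fold change of -0.21 ± 0.16 (SE, adjusted p = 0.52). Cox6a2 made up 21.8, 20.3, 24.5, 28.8 and 23.6% of the counts of the pair in PBS libraries and 18.5, 14.6 and 17.0% in LPS libraries. All 3 LPS shares were below all 5 PBS shares, a pattern already held in the Cox6a2 values themselves, and the nearest 95% Wilson intervals overlapped (19.0% to 21.8% in s2 and 17.3% to 19.8% in s4, counting error only). Cox4i1, the common form of subunit IV, was at 673, 763, 861, 1141 and 1206 CPM in PBS and 825, 946 and 794 CPM in LPS libraries (log2 fold change -0.12 ± 0.20 (SE), adjusted p = 0.81). Cox4i2, the form known from lung and from low oxygen, was at 5.22, 8.71, 7.18, 11.1 and 6.47 CPM in PBS and 7.21, 3.15 and 3.78 CPM in LPS libraries, from 9 to 30 counts a library, and made up 0.534 to 1.13% of the pair in PBS and 0.332 to 0.866% in LPS libraries. At this depth the shares of Cox4i2 overlapped. Cox6b1, the common form of subunit VIb, was at 273, 280, 353, 534 and 564 CPM in PBS and 321, 356 and 347 CPM in LPS libraries, and its partner Cox6b2, a testis form, was at 17.5 ± 6.26 CPM (SD, n = 5) in PBS and 13.5 ± 2.98 CPM (SD, n = 3) in LPS mice. Cox7a1, the muscle form of subunit VIIa, was at 10.3 ± 2.96 CPM (SD, n = 5) in PBS and 7.98 ± 0.664 CPM (SD, n = 3) in LPS mice, from 2.85 to 5.63% of the counts of Cox7a1 and Cox7a2 in PBS and 4.77 to 5.40% in LPS libraries. Cox7a2l, a relative that joins complexes III and IV into supercomplexes, was at 168, 214, 210, 261 and 230 CPM in PBS and 168, 177 and 177 CPM in LPS libraries, with a log2 fold change of -0.32 ± 0.15 (SE, adjusted p = 0.29). LPS library s4 sat level with PBS library s1, and no other LPS library reached s2, s6, s11 or s16.

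**Figure D2:**
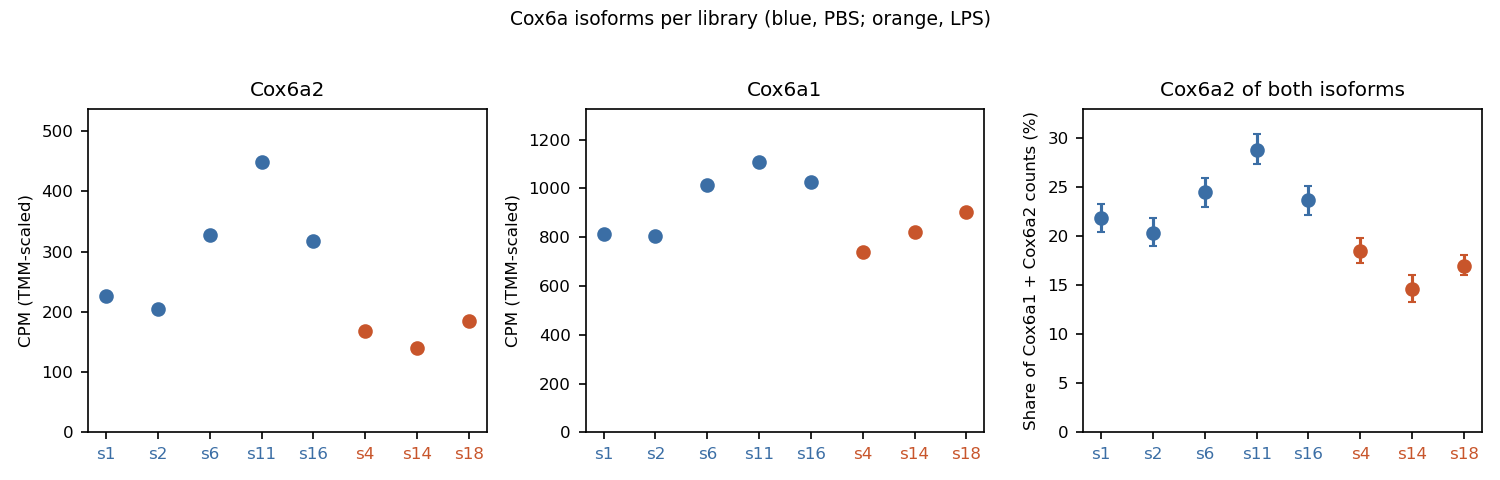
Levels of Cox6a2 and Cox6a1 (CPM scaled by TMM, y axes from 0) and the share of Cox6a2 in the counts of both (%, with 95% Wilson intervals for counting error) in each of 5 PBS (blue) and 3 LPS (orange) libraries. Cox6a2 lies between 140 and 185 CPM in the LPS libraries and between 205 and 448 CPM in the PBS libraries, and Cox6a1 overlaps between the groups.

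Other complex IV members varied with 1 library. Ndufa4, named for complex I and now placed in complex IV, was at 101, 72.9, 86.9, 134 and 198 CPM in PBS and 61.0, 29.4 and 110 CPM in LPS libraries, with s16 the highest and s14 far the lowest (log2 fold change -0.81 ± 0.39 (SE), adjusted p = 0.31). Its log2 fold change was -0.54 without s16, -0.46 without s14 and -1.38 without s18. Its relative Ndufa4l2, known to be induced by low oxygen, stood at 4.52, 4.51, 4.38, 6.27 and 2.83 CPM in PBS and 5.29, 2.10 and 1.78 CPM in LPS libraries, which in s14 and s18 were 6 and 8 counts. Cox8a, subunit VIII, was at 148, 131, 192, 176 and 198 CPM in PBS and 166, 288 and 166 CPM in LPS libraries and was the sole complex IV member above 0, with a log2 fold change of 0.29 ± 0.21 (SE, adjusted p = 0.50) that became -0.03 without s14. Library s14 was thus high for Uqcrb and Cox8a and low for Ndufa4, whereas s4 and s18 lay within the PBS range for Uqcrb and Cox8a.

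ATP synthase subunits were below 0 in 14 of 17 (82.4%, against 52.7% of all genes), with a median log2 fold change of -0.22. At an unadjusted p under 0.05, 4 (23.5%, against 7.64% of all genes) were lower. The sum was 0.555, 0.553, 0.615, 0.611 and 0.625% of the counts in PBS and 0.553, 0.564 and 0.563% in LPS libraries. The c subunit of the rotor ring is made from 3 genes that encode the same mature protein with different import sequences. Atp5g1, of these, was at 111, 88.7, 100, 130 and 135 CPM in PBS and 72.3, 63.0 and 89.0 CPM in LPS libraries, where s18 alone touched the PBS range at s2 (log2 fold change -0.59 ± 0.17 (SE), adjusted p = 0.11). Atp5g3, the most abundant of them, was at 620, 582, 864, 881 and 868 CPM in PBS and 596, 608 and 626 CPM in LPS libraries, with s1 among the LPS libraries, s2 below them and the other PBS libraries far above (log2 fold change -0.32 ± 0.17 (SE), adjusted p = 0.35). Atp5g2 was scarce, at 6.96, 7.10, 4.78, 5.79 and 4.04 CPM in PBS and 4.33, 5.95 and 5.56 CPM in LPS libraries (log2 fold change -0.14 ± 0.28 (SE), adjusted p = 0.84). Atp5g1 made up 10.4 to 15.2% of the counts of Atp5g1 and Atp5g3 in PBS and 9.39 to 12.4% in LPS libraries, ranges that overlapped. Atp5e, the epsilon subunit of the central stalk, was at 476, 468, 482, 531 and 636 CPM in PBS and 302, 385 and 448 CPM in LPS libraries. Every LPS library was below every PBS library, with PBS libraries s1, s2 and s6 close together, and the log2 fold change was -0.46 ± 0.17 (SE, adjusted p = 0.17). Atp5k, subunit e of the membrane part with NRF1 letters in its promoter, was at 169, 154, 246, 248 and 284 CPM in PBS and 147, 160 and 167 CPM in LPS libraries, with s2 among the LPS libraries and s1 just above them (log2 fold change -0.48 ± 0.20 (SE), adjusted p = 0.23).

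Other parts of the enzyme did not separate the groups. Atp5d, the delta subunit of the central stalk and the most abundant member of this complex, was at 656, 701, 904, 941 and 912 CPM in PBS and 694, 768 and 751 CPM in LPS libraries (log2 fold change -0.16 ± 0.16 (SE), adjusted p = 0.65). The beta subunit Atp5b and the alpha subunit Atp5a1, which form the head and were chosen after their values were seen, had log2 fold changes of 0.09 ± 0.12 (SE, adjusted p = 0.75) and 0.07 ± 0.15 (SE, adjusted p = 0.86). Atp5b was at 713, 709, 806, 782 and 702 CPM in PBS and 777, 823 and 773 CPM in LPS libraries, with a highest PBS library 1.15 times the lowest, against 1.84 times in Atp5k. The membrane subunit Atp5md, or DAPIT, had the lowest log2 fold change of all members, -1.12 ± 0.49 (SE, adjusted p = 0.26), but its values of 12.9, 10.0, 13.2, 42.0 and 44.5 CPM in PBS and 11.5, 8.75 and 12.4 CPM in LPS libraries show that s11 and s16 alone were high, and the gene Taf5 overlaps its last 500 bases. Atp5md and the next member were chosen after their values were seen. Atp5mpl, a small proteolipid, spread from 7.42 to 46.5 CPM in PBS mice and from 10.2 to 47.9 CPM in LPS mice, so that nothing could be resolved (standard error 0.57). Many small subunits have processed pseudogenes, and reads that map to more than 1 place were dropped, so that levels of such members are uncertain.

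The 6 Nduf assembly factors, which build complex I and are not part of it, had a median log2 fold change of 0.00 (-0.0026) and none at an unadjusted p under 0.05. Their sum was the sole one of the 6 classes in which every LPS library was above every PBS library, at 0.0297, 0.0286, 0.0309, 0.0316 and 0.0312% in PBS and 0.0322, 0.0381 and 0.0328% in LPS libraries. After TMM scaling no single factor separated the groups. Ndufaf3, its most abundant gene, was at 105, 110, 114, 142 and 144 CPM in PBS and 128, 155 and 139 CPM in LPS libraries (log2 fold change 0.19 ± 0.15 (SE), adjusted p = 0.52), and gene models of Impdh2 overlap its last 500 bases. Ndufaf6 and Ndufaf2 had log2 fold changes of 0.25 ± 0.22 (SE, adjusted p = 0.59) and -0.04 ± 0.24 (SE, adjusted p = 0.95). Cyc1, cytochrome c1 of complex III, which the symbol rule does not take, was at 264 ± 33.9 CPM (SD, n = 5) in PBS and 236 ± 26.4 CPM (SD, n = 3) in LPS mice, with a log2 fold change of -0.16 ± 0.14 (SE, adjusted p = 0.60). Atpif1, an inhibitor of ATP synthase, was at 413, 454, 536, 638 and 786 CPM in PBS and 595, 536 and 616 CPM in LPS libraries (log2 fold change 0.04 ± 0.20 (SE), adjusted p = 0.94), with s1 and s2 the lowest of all 8.

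**Figure D3:**
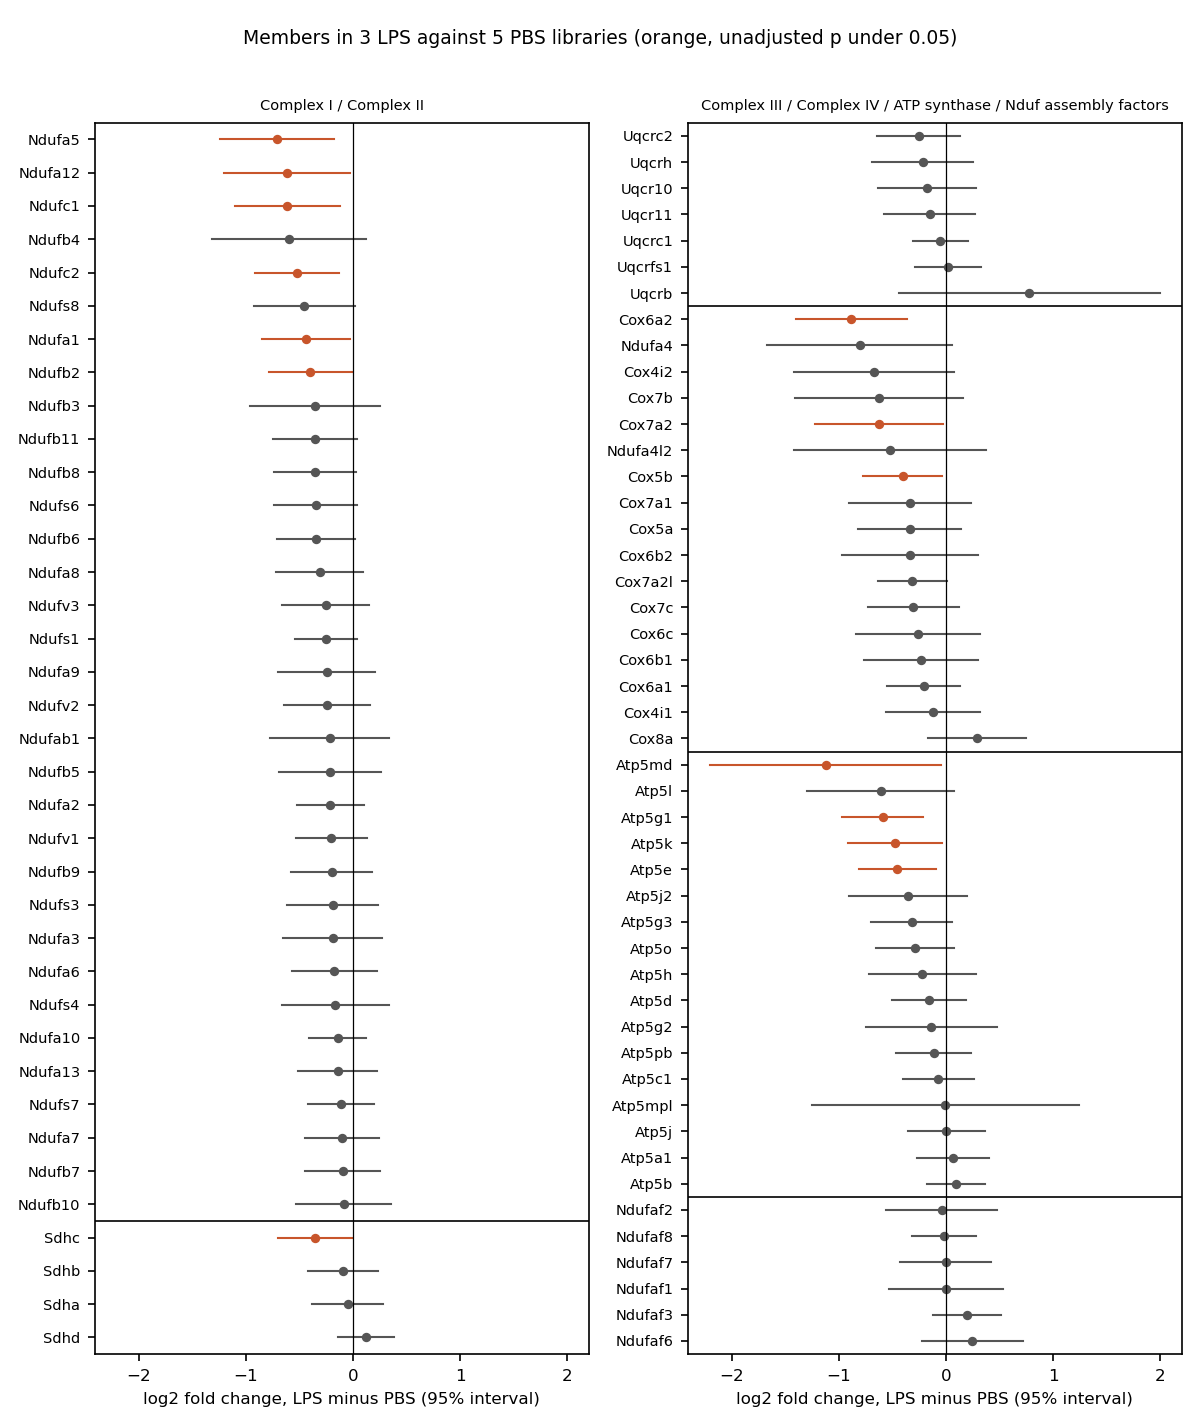
Log2 fold change (LPS minus PBS, x axis) of each of 84 members with its 95% interval from edgeR, by complex, ordered by size within each. The 14 members in orange had an unadjusted p under 0.05, all of them lower in LPS, and 75 of 84 points lie below 0.

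The intervals limit how large a change could have been missed. The median standard error was 0.19 on the log2 scale over the members and 0.23 over all genes tested. The 95% interval of the log2 fold change lay above a halving in 72 of 85 members, beside 10365 of 12661 genes tested. It lay below a doubling in 83 members, beside 9955 genes. A fall of 1.5-fold was outside the interval in 34 members, beside 7127 genes, whereas a rise of 1.5-fold was outside it in 81, beside 7480 genes. For the 20 core subunits a fall of 1.5-fold was outside the interval in 12, and a halving was outside it in all 20.

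The members differed among the PBS mice. Libraries s11, s16, s1 and s2 were picked from the values as the high and the low end, so their contrast is a description, has no test and cannot be weighed against the difference between the groups. In 72 of 85 members (84.7%) both s11 and s16 were above both s1 and s2, against 25.7% of all genes tested, and the reverse held in 4 members (4.71%, against 27.8%). All 4 were core subunits, among them Sdha, Atp5g2 and Atp5a1, and they were picked out by their values. The mean of s11 and s16 over that of s1 and s2 had a median log2 ratio of 0.55 in the members and -0.03 in all genes. The highest library was s11 or s16 in 65 members (76.5%, against 31.1% of all genes) and an LPS library in 9 (10.6%, against 34.3%). The lowest was an LPS library in 38 (44.7%, against 34.9%). By class, the median log2 ratio was 0.66 in the 59 accessory subunits and 0.34 in the 20 core subunits, and all 27 accessory subunits of complex I had the order given. In 67 members (78.8%, against 67.5% of all genes) the LPS mean lay within the range of the PBS libraries. The labels give no difference between these PBS mice.

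**Figure D4:**
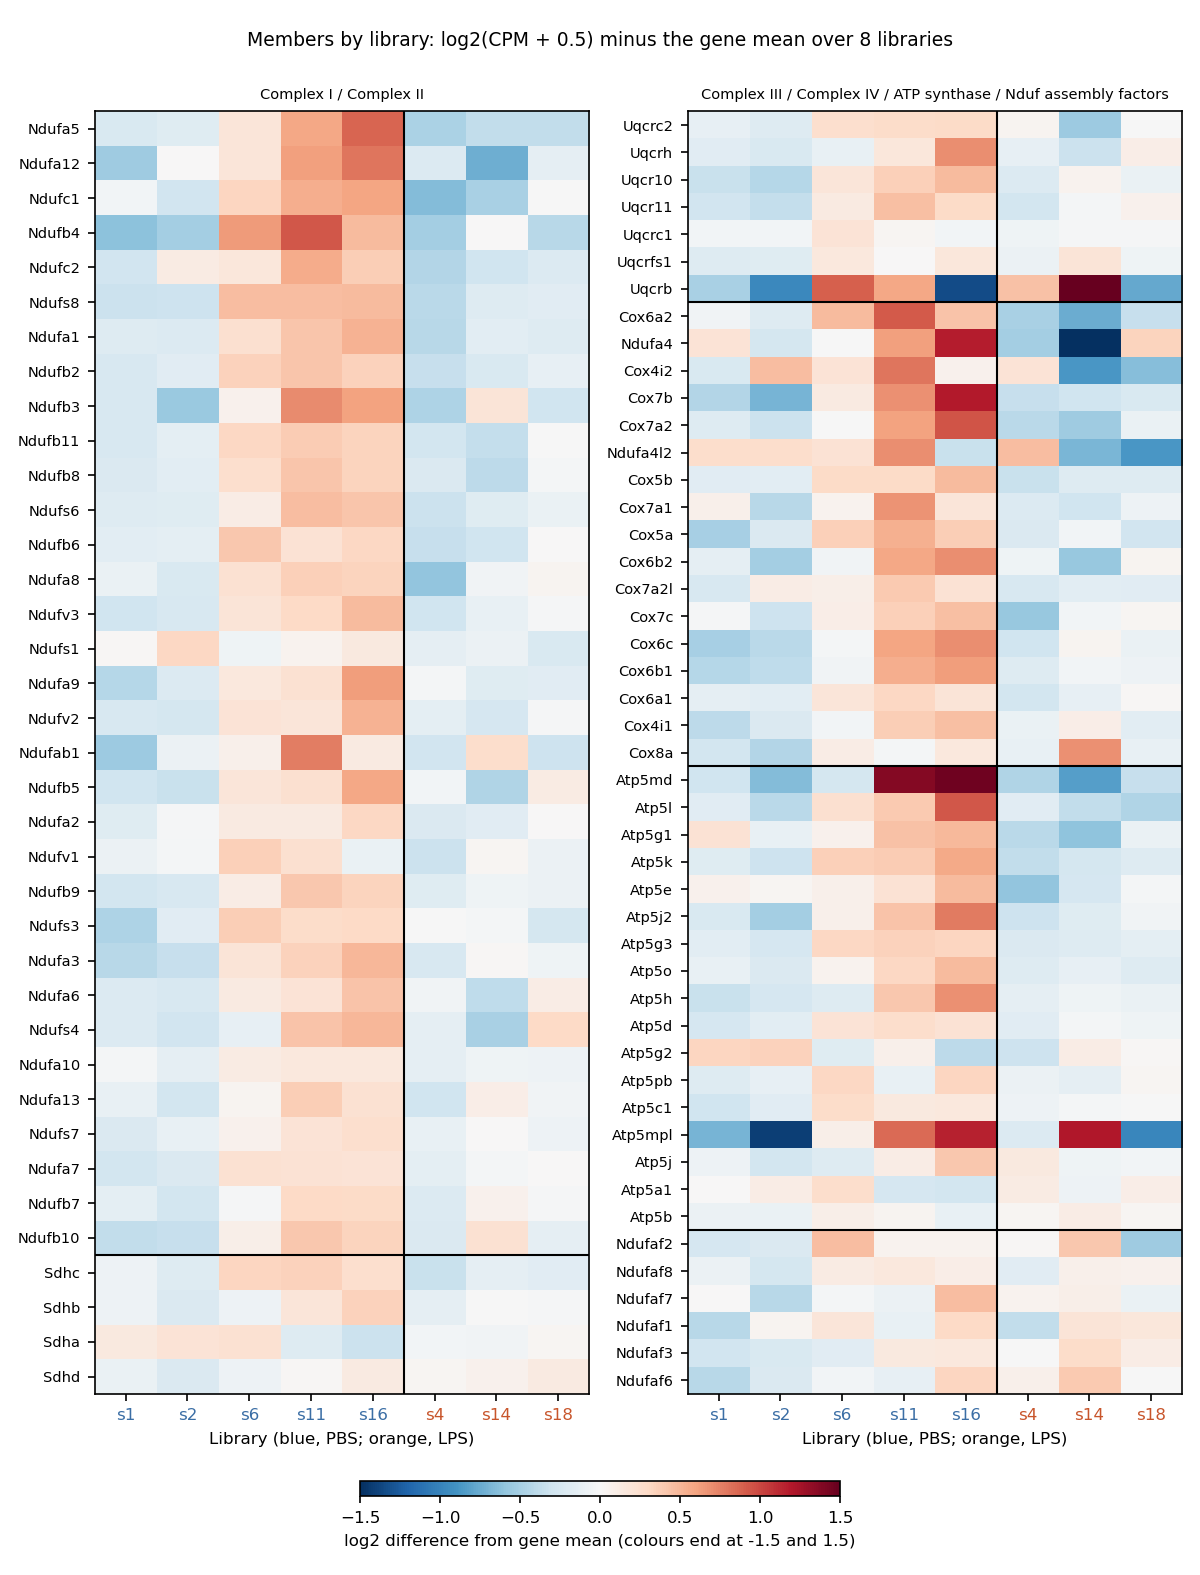
Heat map of 84 members (rows, by complex and ordered by log2 fold change) in the 8 libraries (columns, PBS in blue and LPS in orange), coloured by log2(CPM + 0.5) minus the gene's mean over the 8 libraries, with colours ending at -1.5 and 1.5. PBS libraries s11 and s16 are red in most rows, s1 and s2 are blue like the LPS libraries, and 72 rows have both s11 and s16 above both s1 and s2.

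The count of calls depended on which PBS mice entered. Without s1 and s2, 20 members (23.5%) were called lower, against 2.94% of all genes, and the median log2 fold change was -0.44. These were 10 subunits of complex I (Ndufa1, Ndufa5, Ndufa12, Ndufb2, Ndufb4, Ndufb8, Ndufb11, Ndufc1, Ndufc2 and Ndufs8), 1 of complex II (Sdhc), 5 of complex IV (Cox5a, Cox5b, Cox6a2, Cox7a2 and Cox7b) and 4 of ATP synthase (Atp5g1, Atp5g3, Atp5k and Atp5md), with Cox6a2 (adjusted p = 0.0098) and Ndufs8 (adjusted p = 0.015) at the smallest p. Without s6, s11 and s16, 0 members were called and the median turned to 0.10. At an unadjusted p under 0.05, 7 members (8.24%) were then higher, against 9.22% of all genes, and 2 (2.35%) were lower, against 7.06%. These sets of libraries were known from earlier results of these data. Neither is a group of the study, and these values show the reach of the PBS spread only. With each library left out in turn the median ran from -0.31 (without s1) to -0.15 (without s16), and 0 or 1 member was called, the 1 being Cox6a2 without s2 (1.18%, against 0.498% of all genes).

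Other short and abundant transcripts showed the same order of libraries. The 71 cytosolic ribosomal protein genes took 5.70, 6.15, 6.65, 7.22 and 7.16% of the counts in PBS and 5.37, 5.33 and 5.53% in LPS libraries. Of the 71, 0 were called, and the median log2 fold change was -0.31. At an unadjusted p under 0.05, 22 (31.0%) were lower, against 7.64% of all genes, and 0 were higher, against 10.4%. Rps23 and Rps7, proteins of the small ribosomal subunit with the smallest p of that list, had log2 fold changes of -0.86 ± 0.21 (SE, adjusted p = 0.064) and -0.71 ± 0.19 (SE, adjusted p = 0.083). Without s1, 3 genes of the list were called, Rps23 (adjusted p = 0.012) and Rps7 (adjusted p = 0.047) among them. Both s11 and s16 were above both s1 and s2 in 60 of these 71 genes (84.5%), nearly the share found in the respiratory chain. Members are short transcripts. Their principal transcript in GENCODE had a median of 865 bases against 2879 bases over 12182 tested genes with a length, and 57.6% of members were under 1000 bases against 6.25% of all genes. In members of over 500 and up to 750 bases the median log2 ratio of s11 and s16 over s1 and s2 was 0.62, and in all genes of that length it was 0.56. Over 1500 bases the medians were 0.40 in 19 members and -0.10 in 10193 genes. Members of this class went both ways, with a ratio of 1.92 in Atp5md and -0.43 in Sdha. The length is that of the longest principal transcript of a gene. For LPS against PBS the medians in the same length classes were -0.23 and -0.14, and -0.20 and -0.01. Across the members, Spearman's rho of length was 0.15 with the log2 fold change and -0.34 with the PBS ratio (n = 85 genes that share libraries, no test). The part of transcript length, of RNA quality or of the ribosomal genes in the result was not tested.

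**Figure D5:**
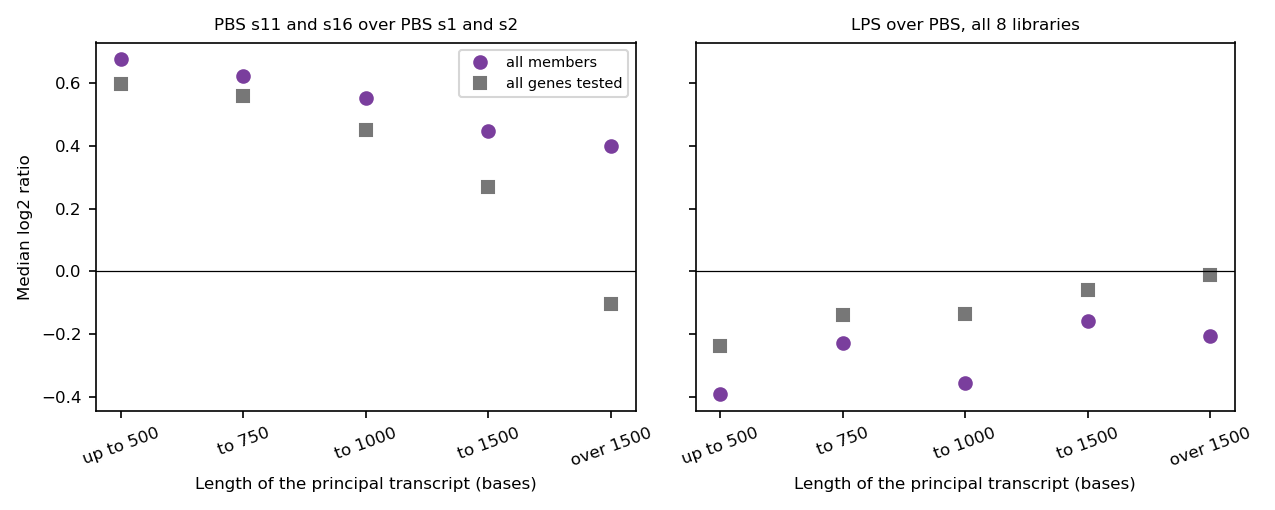
Median log2 ratio (y axis) by length of the principal transcript (x axis, 5 classes in bases, each from the limit of the class before it) for the members (circles) and all genes tested (squares), for PBS libraries s11 and s16 over s1 and s2 (left) and for LPS over PBS mice (right). Left, the medians of all genes run from 0.60 in the shortest class to -0.10 in the longest, and those of the members from 0.68 to 0.40. The shortest class holds 6 members.

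Related pathways were read from the same test. Of 44 assembly factors of the chain, genes that build the complexes and leave, 0 were called, and the median log2 fold change was -0.15. At an unadjusted p under 0.05, 5 (11.4%) were lower, against 7.64% of all genes, and 0 were higher, against 10.4%. Higd1a, which aids complexes III and IV, was at 31.0, 28.1, 37.5, 31.8 and 36.4 CPM in PBS and 22.1, 13.7 and 22.5 CPM in LPS libraries, all LPS values below all PBS values (log2 fold change -0.75 ± 0.20 (SE), adjusted p = 0.082). Dmac1, an assembly factor of the complex I membrane arm, was at 39.0, 37.4, 48.6, 55.5 and 51.8 CPM in PBS and 25.9, 32.9 and 31.1 CPM in LPS libraries and separated the groups likewise (log2 fold change -0.63 ± 0.17 (SE), adjusted p = 0.094). By DESeq2 Higd1a was called (adjusted p = 0.029) and Dmac1 was not (adjusted p = 0.0503).

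Of 72 mitochondrial ribosomal protein genes 0 were called, with a median log2 fold change of -0.16. At an unadjusted p under 0.05, 10 (13.9%) were lower and 2 (2.78%) higher, against 7.64% and 10.4% of all genes. Mrpl32, of the large particle, was at 86.3, 78.7, 112, 107 and 118 CPM in PBS and 67.5, 60.5 and 67.6 CPM in LPS libraries, every LPS value below every PBS value (log2 fold change -0.62 ± 0.16 (SE), adjusted p = 0.074, adjusted p = 0.024 by DESeq2). It was the 1 gene of the list called without s2 (adjusted p = 0.047). Mrps28, of the small particle, had a log2 fold change of -0.69 ± 0.23 (SE, adjusted p = 0.14). The 18 genes of the citric acid cycle and pyruvate dehydrogenase had a median of -0.08, with 0 called. At an unadjusted p under 0.05, 2 (11.1%, against 7.64% of all genes) were lower. These were Fh1, fumarase, at -0.34 ± 0.14 (SE, adjusted p = 0.22), and Dld, a shared dehydrogenase subunit, at -0.30 ± 0.13 (SE, adjusted p = 0.25). In this list both s11 and s16 were above both s1 and s2 in 5 of 18 genes and below both in 9. The 15 genes of glucose uptake, glycolysis and lactate export had a median of 0.07, with 0 called and 3 higher at that p. Slc16a3, a lactate exporter, was at 89.8, 64.2, 23.9, 37.1 and 36.0 CPM in PBS and 92.3, 122 and 96.5 CPM in LPS libraries, every LPS value above every PBS value but by little over s1 (log2 fold change 1.03 ± 0.33 (SE), adjusted p = 0.13). Without s1 it was called, the 1 gene of this list (adjusted p = 0.028). Slc2a1, the glucose transporter GLUT1, was at 52.9, 48.1, 25.5, 46.3 and 59.4 CPM in PBS and 62.5, 81.9 and 84.3 CPM in LPS libraries, again with no overlap (log2 fold change 0.71 ± 0.22 (SE), adjusted p = 0.12).

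Regulators of mitochondrial gene expression were not called either. Of 10 tested, 0 were called and the median log2 fold change was -0.07. At an unadjusted p under 0.05, 1 (10.0%, against 7.64% of all genes) was lower. Pprc1, a coactivator of the PGC-1 family, was at 11.5, 15.5, 16.7, 13.99 and 15.4 CPM in PBS and 7.69, 10.8 and 9.79 CPM in LPS libraries, with no overlap (log2 fold change -0.64 ± 0.21 (SE), adjusted p = 0.14). Gabpa, which encodes the DNA-binding subunit of GABP, had a log2 fold change of -0.37 ± 0.19 (SE, adjusted p = 0.34), and Nrf1 and Yy1, chosen for the promoter letters, had -0.02 ± 0.18 (SE, adjusted p = 0.96) and -0.01 ± 0.17 (SE, adjusted p = 0.99). Their levels of 14.4 to 30.3 CPM for Gabpa, 18.7 to 28.5 CPM for Nrf1 and 26.8 to 40.0 CPM for Yy1 over the 8 libraries do not show the activity of the proteins.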

How the data were processed

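Bulk MARS-seq libraries of sorted lung epithelial cells from 5 PBS and 3 LPS mice were read from the count table of the series. Per the labels and the study's methods, the authors counted UMIs of reads that map uniquely to the 3′ ends of RefSeq genes (mm10, UTAP pipeline) and deposited them as counts, with no normalization. The aligner and its settings are not given in the sources used here. Counting by 3′ end makes counts independent of transcript length in principle, and dropping multi-mapping reads lowers genes with near-identical copies. The table also holds 6 columns of the authors' own DESeq2 comparison (PBS over LPS). Another 16 columns give normalized or transformed values per library. None of these columns was used.

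Genes with at least 30 counts over the 8 libraries were tested with edgeR 4.0.16 (R 4.3.3), with TMM scaling, the quasi-likelihood test and Benjamini-Hochberg adjustment over all 12661 genes. Calls needed an adjusted p below 0.05 and a log2 difference above 0.32 in size. CPM are counts per 1000000 scaled by TMM. The standard error is the log2 fold change over the root of the F statistic. DESeq2 1.42.0, limma-voom (limma 3.58.1), other scalings, other count minimums, thinning and left-out libraries were the alternatives. Shares of counts carry 95% Wilson intervals, which cover counting error only. The labels do not say more on how mice were drawn than that each library is a separate sample, so p-values measure the spread between these samples. Gene positions and promoters came from RefSeq (GRCm38.p6), and transcript lengths and gene overlaps from GENCODE (GRCm38). The test was checked on simulated counts.

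Genes named in full were the 3 of smallest p and the most abundant per complex, the isoform pairs, and the 2 of smallest p per list. Others were chosen after their values were seen. The values of 1 member enter the counts and sums and are not reported here. The members and gene lists were chosen with earlier results of these data known.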

Additional observations from a re-analysis of the deposited data

How the results depend on the processing

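No paired analysis was possible because the columns carry no replicate number that the labels give. The count of members called higher was 0 under all alternatives, and the smallest adjusted p of a member by edgeR was 0.086, so that leaving out the fold threshold changed no count. Members called lower numbered 1 by DESeq2, 20 without PBS libraries s1 and s2, and 0 to 1 with each library left out in turn, and 0 under the others. Their median log2 fold change was 0.10 without s6, s11 and s16, and -0.31 to -0.15 with each library left out in turn. The library totals alone moved the median of all genes from -0.02 to 0.06, gave a member median of -0.12 and turned Sdhb to 0.00 (0.001) and Ndufaf2 to 0.0569. Without s6, s11 and s16 the log2 fold change became 0.12 for Ndufa13, 0.0944 for Sdhb, 0.0212 for Uqcrc2, 0.10 for Uqcrh, 0.0276 for Cox6a1, 0.12 for Atp5d, 0.23 for Ndufaf2, 0.25 for Cox4i1, 0.31 for Cox6b1, 0.17 for Cox6b2, 0.0237 for Atp5g3 and 0.0383 for Cyc1. Without s1 and s2 it became 0.11 for Atp5g2 and -0.17 for Atpif1. With each library left out in turn it ran from -0.0512 to 0.19 for Atpif1, from -0.28 to 0.17 for Ndufaf2, from -0.0256 to 1.19 for Uqcrb and from -0.0267 to 0.42 for Cox8a. The cause was not tested. Over all genes, 185 higher and 72 lower calls became 369 and 191 by DESeq2, 120 and 47 without s6, s11 and s16, 523 and 372 without s1 and s2, 71 and 20 without s11, 48 and 12 without s4, 78 and 20 without s14, and 47 and 12 without s18. With library totals alone they were 170 and 42. Among the lists, DESeq2 called 5 cytosolic ribosomal genes, 1 mitochondrial ribosomal gene and 1 assembly factor, and without s1 and s2 these counts were 24, 10 and 6, with 1 glycolysis gene. Without s1, 3 cytosolic ribosomal genes and 1 glycolysis gene were called, and without s2 1 mitochondrial ribosomal gene. With all libraries thinned to the smallest total, 0 members were called and 15 were lower at an unadjusted p under 0.05. Cox4i2, Atp5g2 and Ndufa4l2 rest on few counts.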
